A study of Zea mays with 24 samples.

Results

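The juvenile leaf transcriptomes of 2 genetic backgrounds of maize (Zea mays) were compared: the A619 line, a derivative of the inbred A619, and ND101/W23, the F1 hybrid of the lines ND101 and W23. Each was hybridized on a 2-colour oligonucleotide array against juvenile leaf RNA of W23, an inbred that carries the bz2 mutation and lacks anthocyanin accumulation. The comparison comprises the 6 juvenile leaf arrays of the 24 arrays in the series, which were chosen by their labels: 3 of A619 over W23 and 3 of ND101/W23 over W23, from 9 leaf samples. The W23 parent is thus shared between the reference and the hybrid, and a transcript that differs between A619 and the hybrid can differ from W23 in either line. All plants were grown in 1 field without a treatment, and fully expanded juvenile leaf blades were harvested from different plants. Each W23 sample was hybridized with both lines, so that arrays with the same replicate number form a pair. The value of every pair is the log2 ratio of A619 over W23 minus that of ND101/W23 over W23, in which the W23 sample and the dye orientation cancel, and it is called the difference below. A difference of 1 is a 2-fold higher level in A619, and a negative difference is a lower level in A619.

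Maize is a C4 plant. In mesophyll cells carbonic anhydrase and phosphoenolpyruvate (PEP) carboxylase bind inorganic carbon into a C4 acid, which moves to the bundle sheath. There NADP-dependent malic enzyme releases CO2 for Rubisco, and pyruvate,orthophosphate dikinase renews the acceptor PEP in the mesophyll. Photosystem core proteins are encoded in the chloroplast genome, while the small chain of Rubisco and the enzymes of the C4 cycle are encoded in the nucleus.

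Of 21939 probes on the array, 7900 had a value on any array and 7873 on all 6 leaf arrays. Array medians were between -0.04 and 0.01, and the ratios of A619 (SD over probes of 1.00 to 1.20) spread more widely than those of ND101/W23 (0.56 to 0.67). The differences of the 3 pairs correlated with each other at 0.801 to 0.863 over the probes, which share arrays and are not independent replicates. Product names stand for the protein that an EST assembly resembles, and 869 of the measured probes had an informative one. Because only ratios were analysed, the label of the tissue could not be checked on levels of leaf genes. Median differences in the study's own tables of transcripts specific to other organs were -0.01, -0.02 and -0.15 in the 3 pairs for pollen (322 probes), 0.18, 0.12 and 0.05 for 1 mm anthers (217 probes) and 0.08, 0.18 and 0.02 for 1.5 mm anthers (124 probes), and their part in the results below was not tested.

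A619 and ND101/W23 differed at 2612 probes, 1417 higher and 1195 lower in A619, which is 33.2% of the 7873 tested (18% higher and 15.2% lower). A probe was called at an adjusted p under 0.05 in limma, with all 3 differences of the same sign. The median called difference was 1.04 in size, or 2.06-fold, and the smallest was 0.46. More than 2-fold differences were called at 698 probes higher and 683 lower, and more than 8-fold differences at 47 higher and 77 lower. A further 54 probes had a mean difference above 2-fold that was not called. Over all probes tested, the median SD among the 3 pairs was 0.27 and the median size of the difference 0.37. Calling selects probes with a large difference for their spread, so the sizes of called probes are not set against it. Leaving out pair 1 or pair 2 left 1242 or 1363 calls. In the limma fit without pairs 1659 probes were called, and Rank Products called 317, of which 155 were higher and 162 lower. Both kept the rule that all 3 paired differences have the same sign.

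The ratios of both lines over W23 are set beside each other in the plot of ratios over W23. Over the called probes the median size of the ratio was 1.03 for A619 and 0.32 for ND101/W23, beside 0.41 and 0.25 over all probes tested. At 2118 of the called probes, 81.1%, the A619 ratio lay farther from 0 than the hybrid ratio, and over all probes tested this share was 66.7%. Both ratios use the same W23 samples, and these values are descriptions without a test.

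**Figure D1:**
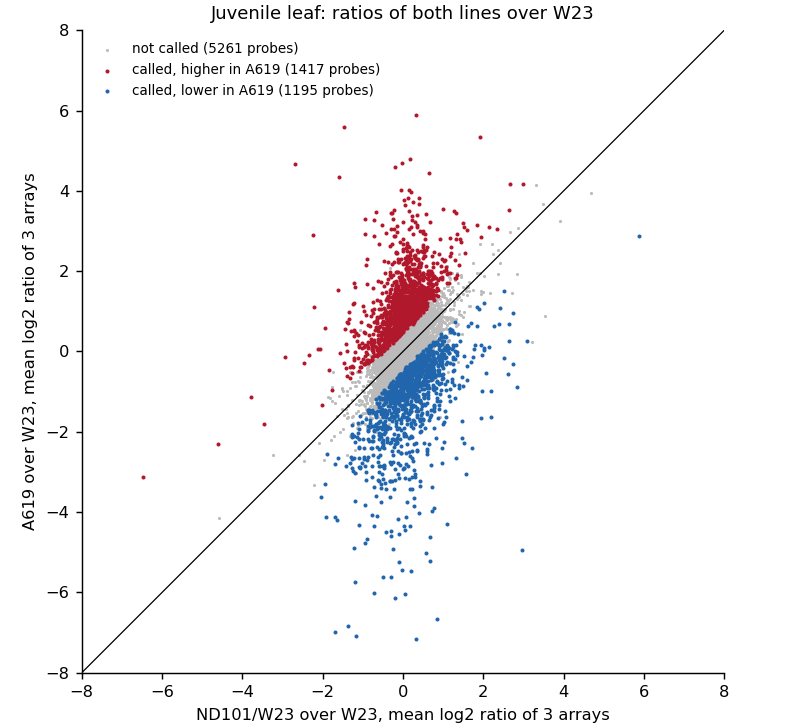
Mean log2 ratio over W23 of 3 arrays for each probe, ND101/W23 on the horizontal and A619 on the vertical axis, with the line of equal ratios. The 1417 probes called higher in A619 lie above the line and the 1195 called lower lie below it, and the cloud of called probes reaches farther along the A619 axis.

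The lowest difference of all belonged to TC248667, a transcript weakly similar to the fungal protein AFR136Cp. In A619 its log2 ratios over W23 were -4, -5.53 and -5.28, whereas the hybrid had 3.27, 3.76 and 1.85. Both lines thus stood on opposite sides of W23 on every array, and the difference was -7.90 ± 0.44 (SE), 238-fold lower in A619 (adjusted p = 0.000863). At the other end, TC269571, a leaf-specific transcript of unknown product, had ratios of 4.64, 5.27 and 4.08 in A619, compared with -2.75, -3.37 and -1.93 in the hybrid. Here A619 was above and the hybrid below W23 in all 3 pairs, with a difference of 7.35 ± 0.47 (SE), 163-fold higher in A619 (adjusted p = 0.0011). The probe of TC269571 runs backward along its EST assembly, so that the strand it detects is not settled. This is also the case for TC259300, similar to the Arabidopsis protein At5g58250, with differences of -6.94, -8.75 and -6.78 and ratios in A619 of -7.78, -8.27 and -5.42. Its hybrid ratios of -0.84, 0.48 and 1.36 lay around 0, and the 2 lines did not overlap.

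The 12 highest and 12 lowest called differences among probes with an informative name are shown in the plot of the largest differences. Of these, 4 of the highest and 5 of the lowest are in the study's tables of transcripts specific to pollen or anthers, which is given at each below. Signal in leaf was not analysed here, and its part in their differences was not tested. Nitrate reductase (AW461127, gene NNR1), which catalyses the first step of nitrate assimilation, was among the lowest. Its ratios were -3.50, -5.65 and -4.19 in A619, compared with 0.50, -0.33 and -0.05 in the hybrid. The hybrid was close to W23 and A619 far below it, a difference of -4.49 ± 0.28 (SE), 22.4-fold (adjusted p = 0.00108). A Bowman-Birk type trypsin inhibitor (TC274896), a class of small defence proteins against insect proteases, had ratios of -5.38, -4.93 and -1.63 in A619, compared with -0.12, 1.66 and 0.60 in the hybrid. All A619 arrays were below all hybrid arrays, but the pairs differed widely from each other, at -5.26, -6.59 and -2.23. The adjusted p was 0.00823, and without pair 1 it was 0.075 at a difference of -4.41. A thioesterase fragment (TC270662) was 17.4-fold lower and a nonspecific lipid transfer protein (TC260017) 14.1-fold lower in A619. Thioesterases cleave acyl thioesters and lipid transfer proteins bind lipids, and for both transcripts the hybrid lay above W23 on every array (3.39, 1.16 and 0.63 for TC270662, 0.63, 4.26 and 1.67 for TC260017). The probe of the lipid transfer protein runs backward along its assembly.

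**Figure D2:**
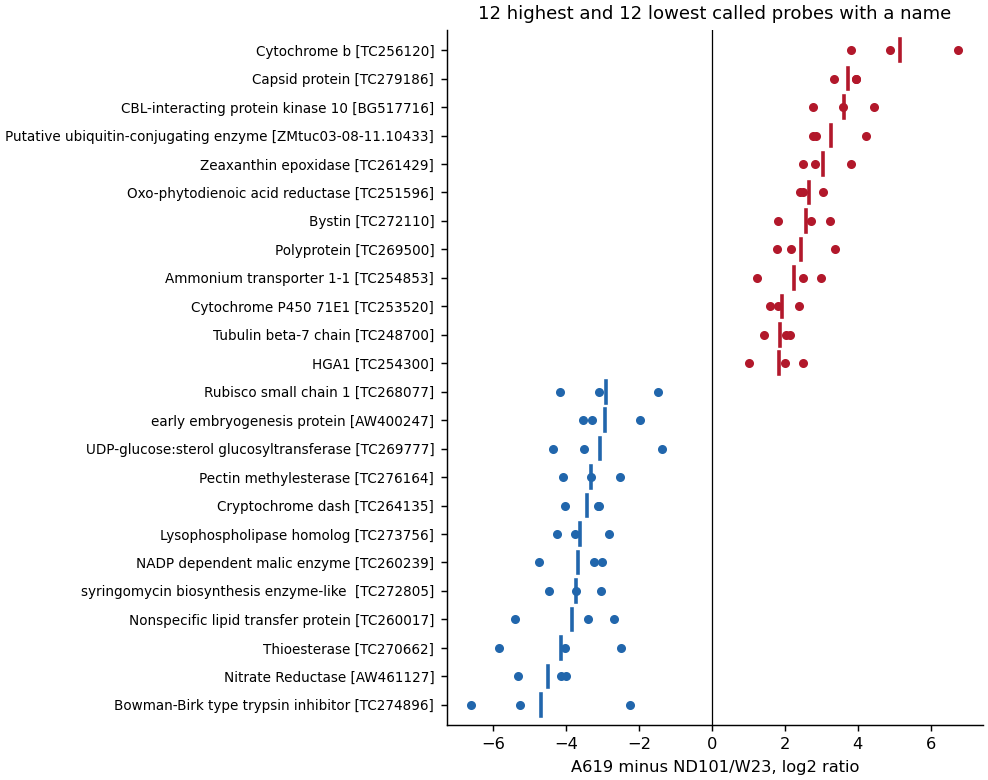
Difference between A619 and ND101/W23 in log2 units for the 12 highest (red) and 12 lowest (blue) called probes whose product name is informative. Dots are the 3 pairs of arrays and bars their means. Means run from -4.69 for the trypsin inhibitor to 5.15 for cytochrome b, and the dots of every probe stay on 1 side of 0.

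The other lowest transcripts comprised proteins of different functions. The syringomycin biosynthesis enzyme-like transcript TC272805 was 13.3-fold lower in A619, with hybrid ratios of 3.09, 3.73 and 1.71 and A619 ratios of -0.62, -0.73 and -1.32. A lysophospholipase homologue (TC273756), of a class of enzymes that cleave a fatty acid from lysophospholipids, was 12.1-fold lower, with ratios of 2.18, 2.71 and 0.94 in the hybrid. Both are in the study's pollen-specific table. In these transcripts the larger mean ratio over W23 was in the hybrid, at 2.84 and 1.94 beside -0.89 and -1.66 in A619. Conversely, cryptochrome dash (TC264135), a member of the photolyase family, had ratios of -2.64, -3.78 and -2.95 in A619, compared with 0.45, 0.25 and 0.18 in the hybrid, a difference of -3.42 ± 0.23 (SE). Pectin methylesterase (TC276164), which removes methyl groups from cell wall pectin, was at -3.30 ± 0.30 (SE), an early embryogenesis protein (AW400247) at -2.93 ± 0.32 (SE) and a sterol glucosyltransferase (TC269777) at -3.07 ± 0.54 (SE). The pectin methylesterase and the glucosyltransferase are listed as pollen-specific too. The last had differences of -3.50, -4.35 and -1.37, and its adjusted p rose from 0.01 to 0.0856 without pair 1.

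Among the highest probes with a name, the mitochondrial protein cytochrome b (TC256120), a core subunit of respiratory complex III, had ratios of 2.35, 3.25 and 3.13 in A619, compared with -1.47, -3.50 and -1.76 in the hybrid. A619 was above and the hybrid below W23 on every array, at a difference of 5.15 ± 0.53 (SE), 35.6-fold (adjusted p = 0.00223). Of the other probes named cytochrome b, TC263497 was lower in A619 (-0.84 ± 0.19 SE, adjusted p = 0.0234, but 0.136 and 0.114 without pair 1 and 2) and TC253961 was at -0.06 (adjusted p = 0.802). The called probes of this name therefore gave differences of opposite sign, and which gene copy or genome each one detects is not known. The study lists TC256120 as specific to pollen and TC253961 to 1 mm anthers. A CBL-interacting protein kinase 10 (BG517716), of a family that acts in calcium signalling, had ratios of 2.82, 4.62 and 3.54 in A619 and 0.04, 0.18 and -0.06 in the hybrid. The hybrid did not leave W23 by more than 0.18, and the difference was 3.61 ± 0.32 (SE), although the study lists this transcript as specific to 1 mm anthers. A ubiquitin-conjugating enzyme (probe 7013), which passes ubiquitin on to target proteins, was 9.67-fold higher and an oxo-phytodienoic acid reductase (TC251596), of an enzyme family known from jasmonate synthesis, 6.28-fold higher in A619. Zeaxanthin epoxidase (TC261429), of the xanthophyll cycle, had differences of 3.82, 2.83 and 2.49, a mean of 3.05 ± 0.27 (SE). Ratios of A619 for this enzyme were 3.69, 3.78 and 2.71, all above the hybrid ratios of -0.13, 0.95 and 0.22.

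Also among the 12 highest were a capsid protein (TC279186, 13.4-fold) and a polyprotein fragment (TC269500, 5.45-fold), names of viral or transposon proteins. The former is listed as pollen-specific, as is bystin. Bystin (TC272110), a ribosome biogenesis factor, was 6.03-fold higher, the ammonium transporter 1-1 (TC254853) 4.71-fold, a cytochrome P450 (TC253520) 3.80-fold, the microtubule protein beta-7 tubulin (TC248700) 3.65-fold and HGA1 (TC254300) 3.57-fold. For the ammonium transporter the pairs gave 2.98, 2.50 and 1.23. The HGA1 adjusted p of 0.00741 rose to 0.0508 without pair 1, at a difference of 1.50.

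Members of the carbon fixation and C4 cycle list were mostly lower in A619. Of 17 measured probes, 9 were lower and 1 higher, which is 52.9% and 5.88%, beside 15.2% and 18% of all probes tested. The median difference was -0.68, with medians of -0.65, -0.74 and -0.66 in the 3 pairs, beside 0.02 over all probes. With arrays scaled to the same spread 8 were lower and 1 higher, and in the limma fit without pairs 6 were lower and 0 higher (0 at an unadjusted p under 0.05). Rank Products called 2 lower and 0 higher. Without pair 1, 2 or 3 the number lower was 5, 6 or 8. It was collected by words in the product names, like the other lists that are not tables of the study, and 14 of its 17 probes are in the study's leaf-specific table.

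The C4 cycle enzymes of this list stand first in the route of carbon. Carbonic anhydrase (TC259337) was lower in A619, with differences of -1.56, -1.40 and -1.06 (mean -1.34 ± 0.16 SE, adjusted p = 0.00337). The other probes of that name did not pass the test, at -0.16 for carbonic anhydrase 3 (TC269142) and 0.08 for a putative carbonic anhydrase (probe 4569). PEP carboxylase (TC269937) was lower by -1.37, -1.71 and -0.66 in the pairs (mean -1.25, adjusted p = 0.0112). Another PEP carboxylase probe (BQ619525), backward along its EST, was at -0.02. The study lists TC269142 and BQ619525 as specific to pollen, and their signal in leaf was not analysed. Ratios of TC269937 varied among arrays, at -0.09, -2.18 and 1.16 in A619, compared with 1.28, -0.47 and 1.82 in the hybrid, and the lines overlapped unless they were compared within pairs. Its adjusted p was 0.4 in the fit without pairs and 0.085 or 0.0556 without pair 1 or 2.

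Both probes of NADP-dependent malic enzyme were lower in A619. The first, TC260239, had ratios of -3.02, -4.64 and -2.61 in A619 and 0.20, 0.09 and 0.41 in the hybrid. The lines did not overlap and differed by -3.66 ± 0.35 (SE) or 12.6-fold (adjusted p = 0.0019). This probe is not in the leaf-specific table, and the study lists it as specific to 1.5 mm anthers. TC270539, named as the chloroplast precursor, had differences of -1.95, -1.93 and -1.60, a mean of -1.83 ± 0.15 (SE) or 3.55-fold (adjusted p = 0.0016). Its probe runs backward along the assembly, and in the scaled arrays the difference was -1.11. Chloroplast NADP-malate dehydrogenase (TC271033), which makes malate in the mesophyll, was at -0.18 (adjusted p = 0.404). Pyruvate,orthophosphate dikinase (AW225169.1) was the member that was higher in A619, with differences of 1.28, 1.00 and 0.71 (mean 1.00 ± 0.17 SE, adjusted p = 0.0085). It passed neither without pair 1 (0.86, adjusted p = 0.0602) nor in the fit without pairs (adjusted p = 0.27).

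In the Calvin cycle, Rubisco small chain 1 (TC268077) had ratios of -4.20, -3.33 and -2.18 in A619, compared with -0.03, -0.24 and -0.70 in the hybrid. All hybrid arrays were closer to W23 than all A619 arrays, and the mean difference of -2.91 ± 0.48 (SE) was 7.53-fold (adjusted p = 0.00825). Its pairs differed widely, at -4.17, -3.09 and -1.48, and without pair 2 the adjusted p was 0.0527 at a difference of -2.82. Phosphoribulokinase (TC263949), which renews the acceptor of Rubisco, was at -1.14 and CP12 (TC262005), a small regulator of this enzyme, at -1.28, and both were lower in A619. Also lower were an N-methyltransferase of the Rubisco small subunit (TC272687, -0.68) and the cytosolic form of fructose-1,6-bisphosphatase (TC249796, -1.12), an enzyme of sucrose synthesis outside the chloroplast rather than of the Calvin cycle. The probes of CP12 and of this phosphatase run backward along their assemblies. Without pair 1 the adjusted p was 0.0537 for phosphoribulokinase (-1.22), 0.0761 for the methyltransferase (-0.70) and 0.0701 for the phosphatase (-1.23, and 0.0729 at -0.74 in the scaled arrays), and that of the methyltransferase was 0.0712 and 0.0552 without pair 2 and 3. The triose phosphate translocator of the chloroplast envelope (probe 1698) at -0.46, a Rubisco binding protein beta subunit (TC249580) at -0.41 and a plastidic aldolase (TC270802) at 0.30 did not pass the test.

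In the photosystem and thylakoid list 4 of 20 probes were higher and 5 lower in A619, which is 20% and 25%, beside 18% and 15.2% of all probes tested. Without pair 1 these numbers were 5 and 0, without pair 2 they were 2 and 2, in the fit without pairs 4 and 2, and with arrays scaled to the same spread 5 and 3. Rank Products called none of the 20. Higher were cytochrome b6 (TC274654, 1.82 ± 0.34 SE), the photosystem II core antenna proteins CP43 (TC251612, 1.44 ± 0.30 SE) and CP47 (TC263487, 1.40 ± 0.23 SE) and a chloroplast gene cluster that holds psbB, psbF, petB and petD (probe 3539, 1.41 ± 0.23 SE). These names are all of chloroplast-encoded genes. CP47 is the product of psbB and cytochrome b6 that of petB, so that they overlap with the gene cluster and are not separate measurements of independent genes. The pairs of the gene cluster gave 0.97, 2.01 and 1.25, from ratios of -0.09, 1.14 and -0.25 in A619, compared with -1.06, -0.87 and -1.50 in the hybrid. Here the hybrid was below W23 on all 3 arrays and below all A619 arrays. The probes of cytochrome b6, CP43 and CP47 run backward along their assemblies, while that of the gene cluster does not. CP43 had an adjusted p of 0.0166, which became 0.0771 without pair 2 and 0.0731 without pair 3, at differences of 1.12 and 1.33, and CP47 had 0.0501 without pair 2, at 1.26.

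Lower in A619 were the photosystem I assembly protein ycf3 (probe 20461), thylakoid-bound ascorbate peroxidase (TC261348), the photosystem II subunits W (TC270718) and K (CF050423) and ferredoxin (TC259449). For ycf3, also encoded in the chloroplast, the ratios were -3.19, -3.23 and -2.05 in A619 and -0.34, -0.20 and -0.87 in the hybrid, without overlap, and the difference was -2.35 ± 0.38 (SE). Another ycf3 probe (TC251425), backward along its EST, was at 0.09 (adjusted p = 0.826). Thylakoid-bound ascorbate peroxidase, which removes hydrogen peroxide at photosystem I, was at -2.34, -2.78 and -1.16 in the pairs. Both calls were lost without pair 1, at differences of -2.10 for ycf3 (adjusted p = 0.067) and -1.97 for the peroxidase (adjusted p = 0.0612), and in the fit without pairs the peroxidase had an adjusted p of 0.0687. Ferredoxin, the electron acceptor of photosystem I, was at -0.67 ± 0.16 (SE) with a backward probe, a call that was lost whichever pair was left out (adjusted p of 0.0549 to 0.114).

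The median difference of the photosystem list was -0.04, but -0.65, 0.12 and 0.40 in the 3 pairs. Pair 1 was thus below the others, and 7 of the 11 probes that were not called had differences of both signs with the lowest value in pair 1, among them the ATP synthase beta chain (TC248277) at -1.34, 0.07 and 0.74. This mixture of signs is seen in the plot of the photosynthesis lists, in contrast to the carbon fixation members, whose 3 pair medians lay within 0.1 of each other. The photosystem I subunit III had 2 probes on 1 assembly (TC248243), at 0.67 in the forward and -0.20 in the backward direction, and neither passed the test.

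**Figure D3:**
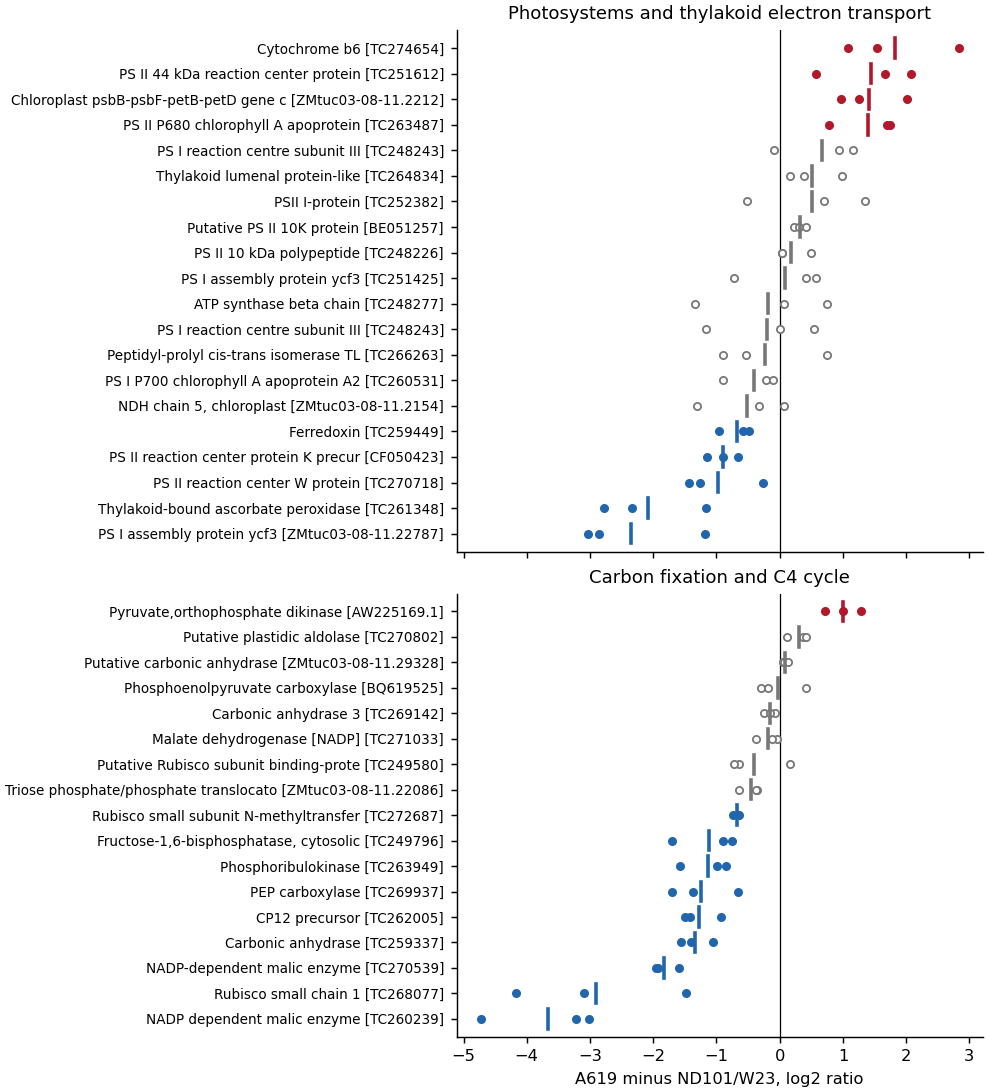
Difference between A619 and ND101/W23 in log2 units for all 20 measured probes of the photosystem list (top) and all 17 of the carbon fixation list (bottom). Dots are the 3 pairs and bars their means, filled and coloured where called. Called probes lie on both sides of 0 in the top panel (4 higher, 5 lower), and 9 of the 10 called probes of the bottom panel lie below it.

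Photosystem II subunits K and W were also in the qRT-PCR panel of the study. The primer pairs that the study used for them are shown here with that of histone H2A. All were called in leaf, as were other panel transcripts named below, whose primers are not shown. The primers are written 5′ to 3′ in the order of the study's primer list and were read from it.
PSII-K, primer 1: ttcgccaaattacccgaag
PSII-K, primer 2: attcaatttggcaggcagaa
PSII-W, primer 1: tctacacctccacgctcgac
PSII-W, primer 2: gtcgcatacaaccacggtct
Histone H2A, primer 1: cgatgtgtttgggaatgaca
Histone H2A, primer 2: cgcatcagaattgttcaaactt

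Of 24 measured panel probes, 4 were higher and 3 lower in A619 (16.7% and 12.5%), near the 18% and 15.2% of all probes tested. The median of their mean differences was 0.26, while the medians in the 3 pairs were -0.12, 0.14 and 0.10. PSII-K, a small subunit of the photosystem II core, had differences of -1.15, -0.89 and -0.66 (mean -0.90 ± 0.16 SE, adjusted p = 0.01). Both lines were below W23 on every array, at -2.04, -1.77 and -2.52 in A619 and -0.89, -0.88 and -1.86 in the hybrid. PSII-W, a small nuclear-encoded subunit, had differences of -1.43, -1.26 and -0.26 (mean -0.98 ± 0.26 SE, adjusted p = 0.0335). Histone H2A (TC247876), a core protein of the nucleosome, was higher at 0.34, 1.32 and 1.48 in the pairs (mean 1.05 ± 0.25 SE, adjusted p = 0.0262). These 3 calls depended on the settings. Without pair 1 the adjusted p became 0.0685 for PSII-K and 0.178 for PSII-W, and without pair 2 it became 0.0518, 0.155 and, for H2A, 0.128. H2A also missed the threshold without pair 3, at 0.83 (adjusted p = 0.109). In the fit without pairs none of the 3 passed, with adjusted p-values of 0.103, 0.0515 and 0.119, and with arrays scaled to the same spread PSII-K was at -0.13 (adjusted p = 0.685).

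The other called panel transcripts were a rice hypothetical protein homologue (TC270572, 1.27), a transcript similar to At3g20475 (TC263246, 1.25), the splicing factor SRP32 (TC248836, 0.55) and, in the negative direction, a ClpB chaperone (TC252408, -0.61). TC263246 had ratios of 1.01, 1.63 and 1.21 in A619, compared with 0.12, 0.14 and -0.15 in the hybrid, and A619 lay above the hybrid throughout. For SRP32 and ClpB the call was lost whichever pair was left out, with adjusted p-values of 0.0746 to 0.151 and 0.0795 to 0.149. TC270572 fell to 0.44 (adjusted p = 0.25) in the scaled arrays and reached an adjusted p of 0.069 without pair 1. Among the panel members that did not pass, the ubiquinol-cytochrome c reductase subunit CR14 (TC259322) had differences of -1.57, 2.61 and 0.88, the widest of the panel. Beta-6 tubulin (TC248696) at -0.28, mitochondrial HSP70 (TC258641) at 0.06 and histone acetyltransferase GCN5 (TC273423) at 0.44 also did not pass.

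In pigment and isoprenoid metabolism, 2 of 14 probes were higher and 4 lower in A619, at a median of -0.25. These shares are 14.3% and 28.6%, beside 18% and 15.2% of all probes tested. Tetrapyrrole synthesis, which leads to chlorophyll and haem, starts in plants with glutamyl-tRNA reductase (TC260171), lower in A619 at -2.60, -1.82 and -0.79. Protoporphyrinogen IX oxidase (TC251215), near the branch to chlorophyll and haem, was lower at -1 (adjusted p = 0.0319, but 0.137 and 0.104 without pair 1 and 2, at -1.03 and -0.66), and coproporphyrinogen III oxidase (TC250591), the step before it, had -0.79, -2.12 and 0.16 and did not pass. Glutamyl-tRNA reductase had ratios of -1.09, -2.39 and 1.13 in A619 and 1.51, -0.57 and 1.92 in the hybrid, which overlapped unless paired. Its adjusted p of 0.014 became 0.273 in the fit without pairs and 0.0688 or 0.0742 without pair 1 or 2, at differences of -1.30 and -1.70. Besides zeaxanthin epoxidase, a putative sterol glucosyltransferase (probe 14068) was higher, at 1.33, whereas the sterol glucosyltransferase TC269777 above was lower. The study lists probe 14068 as specific to 1.5 mm anthers.

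Nitrogen and amino acid metabolism had 2 of 21 probes higher and 4 lower (9.52% and 19%, beside 18% and 15.2% of all probes tested). Next to nitrate reductase and the ammonium transporter these were the cysteine synthases TC264498 (0.62) and TC273920 (-1.37), allantoin permease (TC273868, -1) and a formamidase-like protein (TC259137, -0.75). Cysteine synthase makes cysteine from O-acetylserine and sulfide. The study lists TC264498 as specific to pollen. TC273920 had ratios of -1.74, -2.08 and -2.52 in A619 and -0.20, -0.91 and -1.12 in the hybrid, and these did not overlap. In the scaled arrays its difference was -0.75. The calls of TC264498 (adjusted p of 0.0642 to 0.142 without 1 pair) and of formamidase (0.081 without pair 1 and 0.0719 without pair 2) were lost. Nitrate reductase was thus the only member of the list with a called difference beyond 3 in log2 units, and asparaginase (TC274941, -0.49) and urease (TC262970, -0.50) did not pass.

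Among the 7 sucrose and starch probes, soluble acid invertase (TC260417), which splits sucrose in the vacuole, was lower in A619. Its ratios were -3.72, -5.42 and -3.45 in A619, compared with -0.74, -2.97 and -1.24 in the hybrid. All arrays were below W23 and those of A619 were the lowest, at a difference of -2.55 ± 0.19 (SE), 5.84-fold (adjusted p = 0.00131). This invertase is in the pollen-specific table. Sucrose synthase 3 (probe 20526) was higher at 0.83, a call that was lost without pair 1 (0.73, adjusted p = 0.0889) or pair 2 (0.79, adjusted p = 0.0714). In the scaled arrays the invertase difference was -1.25. Sucrose-phosphate synthase (TC256042) was at -0.39 and did not pass.

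Defence and secondary metabolism had 5 of 20 probes higher and 4 lower (25.0% and 20%, beside 18% and 15.2% of all probes tested). Of the higher ones 4 were cytochromes P450, the family of oxidases of specialised metabolism: TC253520 at 1.93, TC251423 at 1.62, TC273973 at 1.31 and TC257440 at 1.19. A further P450 (BE552887) was lower at -1.43, as were terpene synthase (AI966992, -1.02) and pathogenesis-related protein 4 (TC249136), with differences of -2.86, -2.17 and -1.08. TC273973 was called only with all 3 pairs (adjusted p of 0.0601 to 0.0877 without 1 of them), at 0.16 in the scaled arrays, TC251423 and BE552887 were lost without pair 1 (0.0529 and 0.0629), and pathogenesis-related protein 4 without pair 2 (0.0516). Redox and detoxification had 2 of 19 higher and 5 lower (10.5% and 26.3%). Among the lower ones were a putative peroxidase (CF626959) at -2.73 with a backward probe and an alcohol dehydrogenase class III (TC273131) at -2.19. The latter oxidises the glutathione adduct of formaldehyde. Glutaredoxin (TC263367, 1.04) and thioredoxin (probe 19977, 0.80) were the higher members. Neither passed without pair 1 (adjusted p of 0.0982 and 0.067) or pair 2 (0.0826 and 0.0691). The study lists this thioredoxin as specific to 1.5 mm anthers.

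For regulators the shares called lay below those over all probes (18% higher and 15.2% lower), without a test of the difference. Names came only from the study's tables, and probes in none of them were called at 35.5%. Leaf-specific probes were called at 28%, those of 1 mm anthers at 23% and pollen-specific ones at 13%. A share below that of all probes is thus not particular to regulators. Transcription factors had 3 of 50 probes higher and 6 lower (6% and 12%), with a Myb-related protein (TC274107, 1.49) and a zinc finger protein (TC262867, -1.31) as the members farthest from 0. Kinases and phosphatases had 6 of 53 higher and 5 lower. The catalytic subunit PP2A-4 (TC260677), of a major serine/threonine phosphatase, had ratios of -1.94, -2.21 and -2.35 in A619 and 0.49, 0.31 and -0.34 in the hybrid, without overlap, and a difference of -2.32 ± 0.16 (SE). Calcium-dependent protein kinases were found in both directions, TC273592 at 1.51 and TC249541 at -2.02. Ubiquitin and protein breakdown had 3 of 50 higher and 7 lower. Among the latter were the carboxyl-terminal proteinase TC251804 (-2.35) and a RING finger protein (BM953637, -2.13), which had an adjusted p of 0.0675 without pair 1. The study lists TC249541 as specific to pollen, the Myb-related TC274107 to 1.5 mm anthers and the proteinase TC251804 to 1 mm anthers.

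Of the remaining lists none had more than 21.4% higher or 28.6% lower, beside 18% and 15.2% of all probes tested, and their small sizes allow no order among them. Membrane transporters had 3 of 36 probes higher and 7 lower, with the sialin-like transcript AI947559.1 at -2.54, -2.59 and -2.43 as the lowest. Plastid gene expression and protein traffic had 1 of 19 higher and 3 lower, the latter a ribosomal S1 protein (probe 7756, -1.63), protease IV (TC267212, -1.51) and the chloroplast signal recognition particle subunit of 54 kDa (AI977909, -1.04). Mitochondrial proteins had 3 of 14 higher and 2 lower, with pyruvate dehydrogenase kinase (TC250399), an inhibitor of the entry of pyruvate into the citric acid cycle, at -1.70. Photorespiration and peroxisome had 0 of 7 higher and 2 lower, both putative peroxisomal membrane proteins (probe 9052 at -0.93 and probe 17338 at -0.65), while glycine decarboxylase (TC260059, -0.31) and catalase 2 (TC252043, 0.83) did not pass. At an unadjusted p under 0.05 in limma 1 of the 7 was higher, and Rank Products called none, while without pair 2 the calls were 1 higher and 0 lower. Heat shock proteins and chaperones had 2 of 15 higher and 2 lower, and of these only prefoldin subunit 5 (TC262816, -1.39) was beyond 1. When 1 pair was left out, adjusted p-values rose above the threshold for protease IV (0.092 without pair 1), the signal recognition particle subunit (0.164 and 0.13 without pair 1 and 2), pyruvate dehydrogenase kinase (0.0811 and 0.0644 without pair 1 and 2), both peroxisomal membrane proteins (0.0594 and 0.0501 for probe 9052 without pair 2 and 3, and 0.0716 to 0.173 for probe 17338) and prefoldin (0.146 and 0.124 without pair 2 and 3).

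The study's leaf-specific table was chosen on these samples, as transcripts specific to leaf in all 3 lines, so its direction is not independent evidence. Of its 863 measured probes 87 were higher and 155 lower in A619, at a median of -0.09. These shares are 10.1% and 18%, beside 18% and 15.2% of all probes tested. In each pair this median was negative (-0.14, -0.07 and -0.08). With arrays scaled to the same spread, 74 were higher and 158 lower, at a median of -0.02. Of the 280 probes that run backward along their EST 14 were higher and 26 lower (14.3%), and of the 583 in the forward direction 73 and 129 (34.6%), shares that were not compared in a test. Pollen-specific probes had 13 of 322 higher and 29 lower (13% called), beside 33.2% of all probes tested called. Those specific to 1 mm anthers had 34 and 16 of 217 (23% called) and those specific to 1.5 mm anthers 21 and 9 of 124 (24.2% called). Cell cycle transcripts had 8 of 69 higher and 6 lower (20.3% called), from beta-7 tubulin (1.87) to PP2A-4 (-2.32). The shares of all lists are given in the plot of called probes by list.

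**Figure D4:**
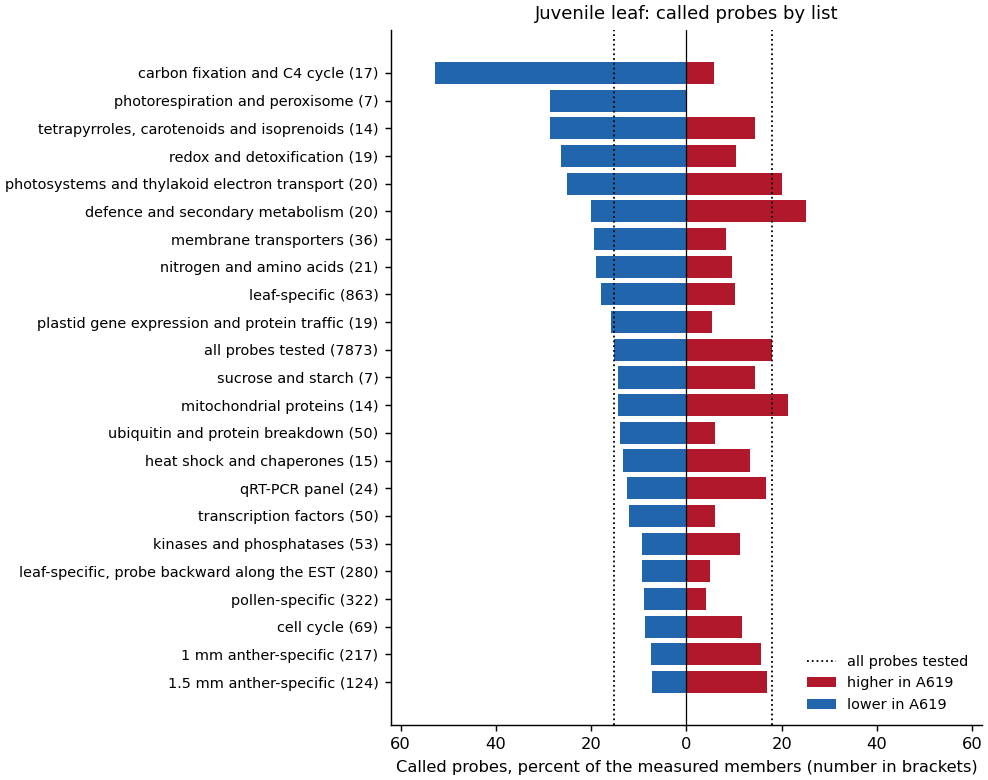
Percent of the measured probes of each list called higher (red, right) or lower (blue, left) in A619, with the number of measured probes in brackets and dotted lines at the shares over all 7873 probes tested (18% higher, 15.2% lower). Carbon fixation stands out to the left with 52.9% lower, and the tables of 1 mm and 1.5 mm anthers show the smallest shares on that side (7.37% and 7.26%).

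Whether the difference between the lines was particular to leaf was tested against the anthers, by the leaf difference minus the mean of the differences in 1 mm and 1.5 mm anthers from 18 arrays. Of 7851 probes tested, 978 had a leaf difference above and 868 below that in anthers (23.5% in both directions, 12.5% and 11.1% in each), at an adjusted p under 0.05 in limma and with all 3 leaf differences on 1 side of all 6 anther differences. Of the 2612 probes called in leaf, 2604 could be tested and 1501 were apart from anthers. The median size of the difference over all 7851 probes was 0.37 in leaf (mean of 3 pairs) and 0.19 in anthers (mean of 6 pairs of both stages). These are descriptions without a test, and means over unlike numbers of pairs are not like measures of size. Probes entered the data when they hybridized in any tissue, so that a transcript without signal in anthers can have a ratio near 0 there. Of the 857 leaf-specific probes tested, which the study lists as specific to leaf, 60 were above and 110 below, and their separation cannot be told apart from a lack of signal in anthers.

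**Figure D5:**
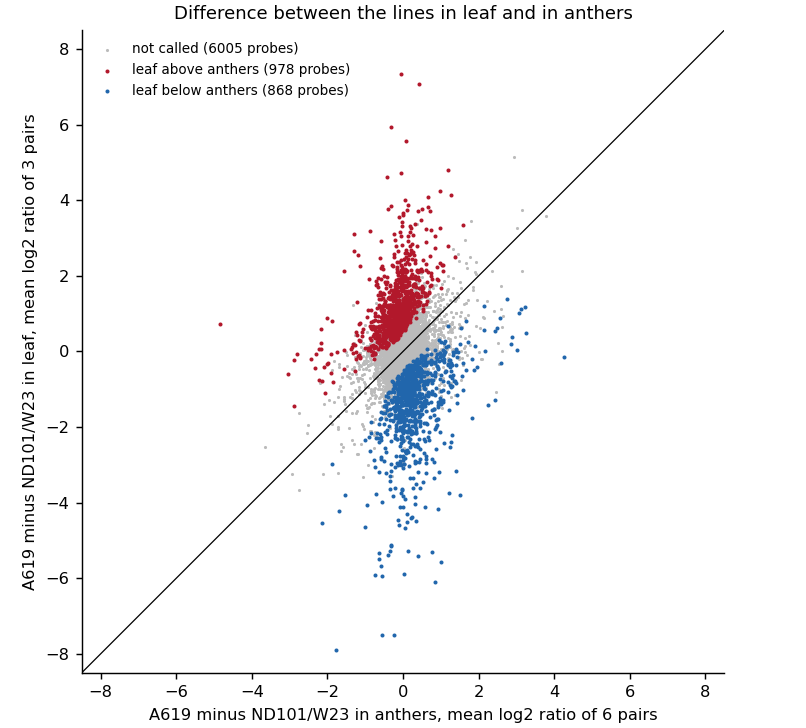
Difference between A619 and ND101/W23 in leaf (vertical, mean of 3 pairs) against the mean difference in both anther stages (horizontal, 6 pairs) for 7851 probes in log2 units, with the line of equal differences. The 978 probes above (red) and 868 below (blue) lie mostly along the vertical axis, where the anther difference is near 0, while some large leaf differences follow the line of equal differences.

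Transcripts outside the leaf-specific table were also set apart, but where the study lists them as specific to pollen the same limit holds. The kinase BG517716, from the table of 1 mm anthers, had a leaf difference of 3.61 beside 0.08 in 1 mm and -0.07 in 1.5 mm anthers (leaf minus anthers 3.60, adjusted p = 0.000112). Of the pollen-specific table, bystin (TC272110) was at 2.59 in leaf and at 0.30 and 0.14 in the anther stages (2.37, adjusted p = 0.000663, and 1.17 in the scaled arrays). The lysophospholipase homologue TC273756 was at -3.60 in leaf and at 0.25 and 0.29 in anthers (-3.87, adjusted p = 0.0002). The syringomycin biosynthesis enzyme-like TC272805 was at -3.73 in leaf and at -0.41 in 1 mm anthers, and its 1.5 mm pairs gave 8.58, -0.03 and -0.07 (leaf minus anthers -4.94, adjusted p = 0.0418). Without the 1.5 mm pair of 8.58 the value was -3.50 (adjusted p = 0.000175), a setting chosen after seeing the data. When any 1 leaf pair or 1 mm pair was left out, its adjusted p was 0.061 to 0.144. Other large leaf differences recurred in anthers and were not set apart by the test. Malic enzyme TC260239 was at -3.66 in leaf and at -2.09 and -3.41 in 1 mm and 1.5 mm anthers (-0.91, adjusted p = 0.422), the ubiquitin-conjugating enzyme probe 7013 at 3.27, 2.70 and 3.34 (0.25, adjusted p = 0.75) and the capsid protein TC279186 at 3.74, 2.14 and 4.15 (0.60, adjusted p = 0.283). Cytochrome b TC256120 was at 5.15 in leaf and at 2.34 and 3.51 in anthers, positive in leaf and both anther stages. Its difference of 2.23 (adjusted p = 0.013) missed the call because the leaf values overlapped those of anthers. Pollen was left out of this test because many probes do not hybridize there. The pollen pairs gave -0.57, -3.13 and 0.05 for the capsid protein, opposite in mean sign to leaf and anthers. They gave 4.39, 2.58 and 0.36 for cytochrome b and 0.58, 0.14 and 0.59 for probe 7013. The study lists TC260239 as specific to 1.5 mm anthers and the capsid protein and cytochrome b as specific to pollen. Probe 7013 is in its leaf-specific table, and signal of this probe in anthers was not analysed.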

How the data were processed

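The deposited log2 ratios, 1 value per probe and array, were used as the authors made them. Agilent Feature Extraction read the images, and saturated spots were left out. Probes were kept for every array if they exceeded a background threshold, first set from the negative controls, in any tissue. A kept probe can thus lack signal above background in leaf. Ratios were normalized within arrays (rank-invariant probes, loess), and triplicates were scaled to 1 variance, which leaves unequal spreads between the lines. Labels and design figure give opposite dyes, so the direction was taken from the signs of the study's panel (14 of 14 panel probes beyond 0.1 in log2 units had the sign of the deposited ratios) and, for A619, from the shared W23. Names came from the study's tables (probe number minus 3, with 22 of 22 known accessions matching).

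Pairing by W23 sample rests on the design legend. Deviations from the mean of each line correlated at 0.284 to 0.645 within and -0.571 to 0.019 between numbers. The deviations of a line sum to 0, which draws the values between numbers downward. Arrays of the same number also share the dye orientation, so these correlations do not test the shared W23 sample. The 3 paired differences were tested against 0 with limma 3.58.1 in R 4.3.3 (eBayes, Benjamini-Hochberg over 7873 probes). The code was tested on simulated data. Tables and plots used Python 3.11.15, pandas 2.3.3 and matplotlib 3.10.9. Alternatives were no pairs, centring, scaling, other probe filters, no sign rule, Rank Products, robust eBayes and leaving out each pair. P-values measure the spread between 3 pairs of biological samples, whose number limits the precision.

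The text names the 12 called probes at each end of the differences that have an informative name, the extremes of all probes, panel probes and the leading called members of each list. Further list members were named after their values were seen. The comparison and the lists were chosen with earlier results of these data known, and the word patterns were written with the names in view and before the leaf fit. Signal intensities and probe sequences were not used here.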

Additional observations from a re-analysis of the deposited data

Results flagged for a closer look

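The difference between A619 and ND101/W23 in leaf departed from that in anthers at 1846 probes in the test of the difference itself. Part of the named ones are given here as leaf minus anthers in log2 units. They are the called ones among the largest differences with a name, the extremes, and the leading members of the photosynthesis, nitrogen, pigment and sucrose lists. Not all members of these lists that were set apart are given. Other named probes were set apart too, among them the At5g58250-like TC259300 at -6.93. Above anthers were TC269571 of unknown product at 7.40, the kinase BG517716 at 3.60, oxo-phytodienoic acid reductase TC251596 at 2.77, bystin TC272110 at 2.37, the ammonium transporter TC254853 at 2.25, the polyprotein TC269500 at 2.22, zeaxanthin epoxidase TC261429 at 2.19 and cytochrome P450 TC253520 at 1.84. Of the chloroplast-encoded thylakoid proteins, cytochrome b6 TC274654 was at 2.03 and CP43 TC251612 at 1.32, and the sterol glucosyltransferase probe 14068 was at 0.94.

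Below anthers were AFR136Cp-like TC248667 at -6.14, syringomycin biosynthesis enzyme-like TC272805 at -4.94 (-3.50 without the 1.5 mm anther pair that stood at 8.58), nitrate reductase AW461127 at -4.84, thioesterase TC270662 at -4.11, lysophospholipase TC273756 at -3.87, lipid transfer protein TC260017 at -3.81, Rubisco small chain TC268077 at -3.35, the early embryogenesis protein AW400247 at -3.28, sterol glucosyltransferase TC269777 at -3.07 and cryptochrome dash TC264135 at -3.06. Cysteine synthase TC273920 was at -2.80, thylakoid ascorbate peroxidase TC261348 at -2.19, acid invertase TC260417 at -2.07 and malic enzyme TC270539 at -1.99. Of these the kinase is in the study's table of 1 mm anthers, probe 14068 in that of 1.5 mm anthers, and bystin, TC272805, the lysophospholipase, TC269777 and the invertase in that of pollen. Signal in anthers was not analysed here, and its part in these values was not tested. Groups of 3 arrays are too small for a test of outlying arrays.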

How the results depend on the processing

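With the lines fitted as independent groups without the replicate block, 1659 probes were called in leaf (934 higher and 725 lower). Rank Products called 317 (155 and 162). Both settings kept the sign rule on the paired differences. Leaving out 1 pair gave 1242 to 1990 calls, 663 to 1040 higher and 579 to 950 lower. Centring, robust eBayes, other probe filters, no sign rule and scaling to the same spread kept the leaf counts within 1.5 times. Against anthers, scaling gave 1153 calls with 513 above and 640 below, which turned their balance, and the other settings, among them leaving out 1 anther pair (1763 to 1965 calls, chosen after seeing the data), stayed within 1.5 times. Of 91 named probes called, 36 were called under every alternative and 55 without any 1 pair, and none changed sign. Scaling to the same spread moved the median difference to 0.07 for cell cycle, 0.02 for defence and for the panel, -0.05 for kinases, -0.02 for leaf-specific and 0.06 for its backward probes, 0.30 for mitochondrial proteins, -0.92 for photorespiration, 0.05 for pollen-specific, -0.09 for redox and -0.07 for sucrose and starch. Leaving out 1 pair gave medians of 0.02 to 0.05 for cell cycle, -0.06 to 0.14 for mitochondrial proteins, -0.23 to -0.06 for sucrose and starch and -0.36 to -0.11 for pigments and isoprenoids. All other list medians moved by less than the spread of the pairs. Signal over background is not known from ratios.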
